A study of Mus musculus with 10 samples.

Results

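Fads2 and Tlcd1, genes whose products are linked to polyunsaturated acyl chains of membranes, were described here in mouse liver with gain or loss of the SREBP pathway. Only RNA was measured, and no lipids. The members were all probe sets that the platform annotation assigns to exactly 1 of these symbols: 4 of 12411 tested probe sets, 2 for each gene, among 7542 annotated genes. Both genes had been chosen with their values in these 5 groups known. Their levels and differences are therefore a description, with no test.

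The TgSREBP-1a group was made of male mice aged 12 to 16 weeks that overexpress human SREBP-1a as its nuclear, transcriptionally competent fragment, and the TgSREBP-2 group overexpressed the matching fragment of human SREBP-2. Their wild type littermates formed the WT pool of the transgenic study, and all 3 of these groups were given high-protein, low-carbohydrate food over 2 weeks, which per the labels drives the nuclear SREBPs to high levels. Scap-/- mice were males aged 10 to 12 weeks that carry MX1-Cre, a recombinase gene switched on by interferon and not bound to 1 cell type. They and the wild type mice of the Scap study had 4 injections of polyinosinic-polycytidylic acid, the inducer, ate Teklad chow, and were examined 14 days after the last injection. The 2 studies thus differ in diet, age and injections. Each group is 1 pool of RNA from 5 livers on 2 Affymetrix MG_U74Bv2 arrays, so n = 2 arrays counts hybridisations, and every error below leaves out the spread between mice. The sources used here do not name the promoters that drive the transgenes.

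FADS2 is the desaturase that puts the first new double bond into linoleic and alpha-linolenic acid, the step that opens the path to arachidonic and docosahexaenoic acid. TLCD1 is a membrane protein with a TLC domain, a fold shared with ceramide synthases. Work in human cells and in Caenorhabditis elegans, where the homologue is FLD-1, showed that it limits the polyunsaturated phospholipid content of membranes. SREBPs are released from the endoplasmic reticulum with the help of SCAP and then switch on genes of lipid synthesis in the nucleus. SREBP-1a acts on genes of fatty acid and of cholesterol synthesis, and SREBP-2 mainly on those of cholesterol synthesis.

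Because both genes were higher than in WT in TgSREBP-1a livers and lower in Scap-/- livers, their promoter windows are shown first. RefSeq (GRCm38.p6) gave 1 window for Fads2, chr19:10101454-10101753 on the minus strand, and 2 for Tlcd1, chr11:78177880-78178179 and chr11:78178408-78178707 on the plus strand. Each window holds 300 bases, of which 250 lie before the annotated start. Capitals mark matches to the motifs searched on both strands, which were the sterol regulatory element TCACNCCAC, its short form TCACNCC, the E-box CACGTG, the NF-Y box CCAAT and the GC box GGGCGG.
Fads2: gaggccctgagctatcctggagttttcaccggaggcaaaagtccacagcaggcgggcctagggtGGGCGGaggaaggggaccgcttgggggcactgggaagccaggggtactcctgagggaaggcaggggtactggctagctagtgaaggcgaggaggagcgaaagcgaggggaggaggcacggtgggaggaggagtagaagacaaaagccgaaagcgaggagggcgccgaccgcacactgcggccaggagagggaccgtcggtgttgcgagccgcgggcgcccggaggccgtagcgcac
Tlcd1, first window: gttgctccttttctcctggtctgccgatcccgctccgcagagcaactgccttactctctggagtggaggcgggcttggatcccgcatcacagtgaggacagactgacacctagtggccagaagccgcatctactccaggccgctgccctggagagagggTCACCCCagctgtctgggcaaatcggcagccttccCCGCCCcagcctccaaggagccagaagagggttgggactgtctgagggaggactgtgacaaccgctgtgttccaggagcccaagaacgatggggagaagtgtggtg
Tlcd1, second window: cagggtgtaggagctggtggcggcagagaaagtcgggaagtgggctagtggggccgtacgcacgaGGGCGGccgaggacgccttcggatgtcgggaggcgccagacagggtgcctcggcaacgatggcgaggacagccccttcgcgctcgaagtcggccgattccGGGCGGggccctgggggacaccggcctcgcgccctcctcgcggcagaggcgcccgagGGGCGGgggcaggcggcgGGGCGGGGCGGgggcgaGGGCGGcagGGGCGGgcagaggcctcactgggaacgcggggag

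The sterol regulatory element TCACNCCAC was in none of the 3 windows, and it is in 1.24% of all 32851 promoter windows. The short form TCACNCC had 1 match, in the first Tlcd1 window, as TCACCCC from base -91 to base -85 relative to the start. It is in 15.6% of all windows, and every match to the longer form holds it. The E-box (7.15% of all windows) and the NF-Y box (37.4%) had no match. The GC box had 1 match in the Fads2 window, 1 in the first Tlcd1 window on the opposite strand and 7 in the second, of which 2 share a base, and is in 35.7% of all windows. The windows held 67.0%, 61.7% and 76.0% G and C, against a median of 52.7% over all windows. These matches are letters and not measured binding. A missing match holds only for these exact letters within the 300 bases, and bases further from the start were not searched.

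The brighter Fads2 probe set (116843_at), whose mean ranks at the percentile 99.5 of all probe sets, had log2 values of 11.78 and 11.64 in TgSREBP-1a. TgSREBP-2 gave 10.18 and 10.09, and the WT pool of that study 9.51 and 9.36. In the Scap study it read 8.42 and 8.01 in Scap-/- and 9.48 and 9.22 in WT. The order of the levels was TgSREBP-1a, TgSREBP-2, both WT pools and Scap-/-. The WT pools overlapped, and no other neighbours in this order did.

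Fads2 thus stood 2.28 ± 0.14 log2 units (4.85-fold; limma standard error, n = 2 arrays each) above WT in TgSREBP-1a, the rise with rank 14 of 12411 probe sets. In TgSREBP-2 it stood 0.70 ± 0.14 above the same WT arrays (1.63-fold, rank 56), and TgSREBP-1a exceeded TgSREBP-2 by 1.58 ± 0.14 (2.98-fold). In Scap-/- livers its level was 2.19-fold lower than in WT, a difference of -1.13 ± 0.14, with rank 27 from the lowest. The WT pool of the transgenic study differed from that of the Scap study by 0.08 ± 0.14.

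The other Fads2 probe set (163664_at, percentile 98.4) gave the same order. It read 11.14 and 10.77 in TgSREBP-1a livers, 9.56 and 9.37 in TgSREBP-2, and 8.62 and 8.31 in their WT pool. It read 7.12 and 6.79 in Scap-/- and 8.57 and 8.09 in the WT pool there. Its differences from WT were wider than those of the brighter one in all 3 lines: 2.49 ± 0.19 in TgSREBP-1a, 1.0 ± 0.19 in TgSREBP-2 and -1.38 ± 0.19 in Scap-/-. Between the transgenic lines it gave 1.49 ± 0.19, and between the WT pools 0.14 ± 0.19.

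The brighter Tlcd1 probe set (162704_i_at, percentile 92.2) read 9.36 and 9.08 in TgSREBP-1a livers, 7.79 and 7.81 in TgSREBP-2, and 7.65 and 7.49 in their WT pool. It read 7.21 and 6.91 in Scap-/- and 7.89 and 7.84 in the WT pool of that study. TgSREBP-1a was above all other groups and Scap-/- below them. In between, the WT pool of the Scap study lay just above TgSREBP-2, and the WT pool of the transgenic study lay below both, with no overlap between any of the 3.

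Tlcd1 stood 1.65 ± 0.13 log2 units (3.14-fold, rank 33) above WT in TgSREBP-1a. In TgSREBP-2 it stood 0.23 ± 0.13 above WT (1.17-fold, rank 754). TgSREBP-1a exceeded TgSREBP-2 by 1.42 ± 0.13 (2.68-fold). In Scap-/- it was 1.75-fold lower than in WT (-0.81 ± 0.13, rank 57 from the lowest). The WT pool of the transgenic study read -0.29 ± 0.13 relative to that of the Scap study, so these 2 WT pools lay no closer to each other than TgSREBP-2 and its WT did.

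The dim Tlcd1 probe set (116434_at, percentile 27.9) did not give the same picture. It read 5.04 and 4.78 in TgSREBP-1a livers, 4.85 and 4.77 in TgSREBP-2, and 4.46 and 4.51 in their WT pool. It read 4.20 and 4.06 in Scap-/- and 4.91 and 4.58 in WT there. The 2 transgenic lines overlapped, with a difference of 0.10 ± 0.13. TgSREBP-1a stood only 0.43 ± 0.13 above WT, and TgSREBP-2 0.33 ± 0.13. The difference in Scap-/- was -0.62 ± 0.13, nearer to that of the brighter probe set. Between the WT pools it was -0.26 ± 0.13, so both Tlcd1 probe sets read lower in the transgenic study's pool, where both Fads2 probe sets overlapped with the other pool.

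**Figure D1:**
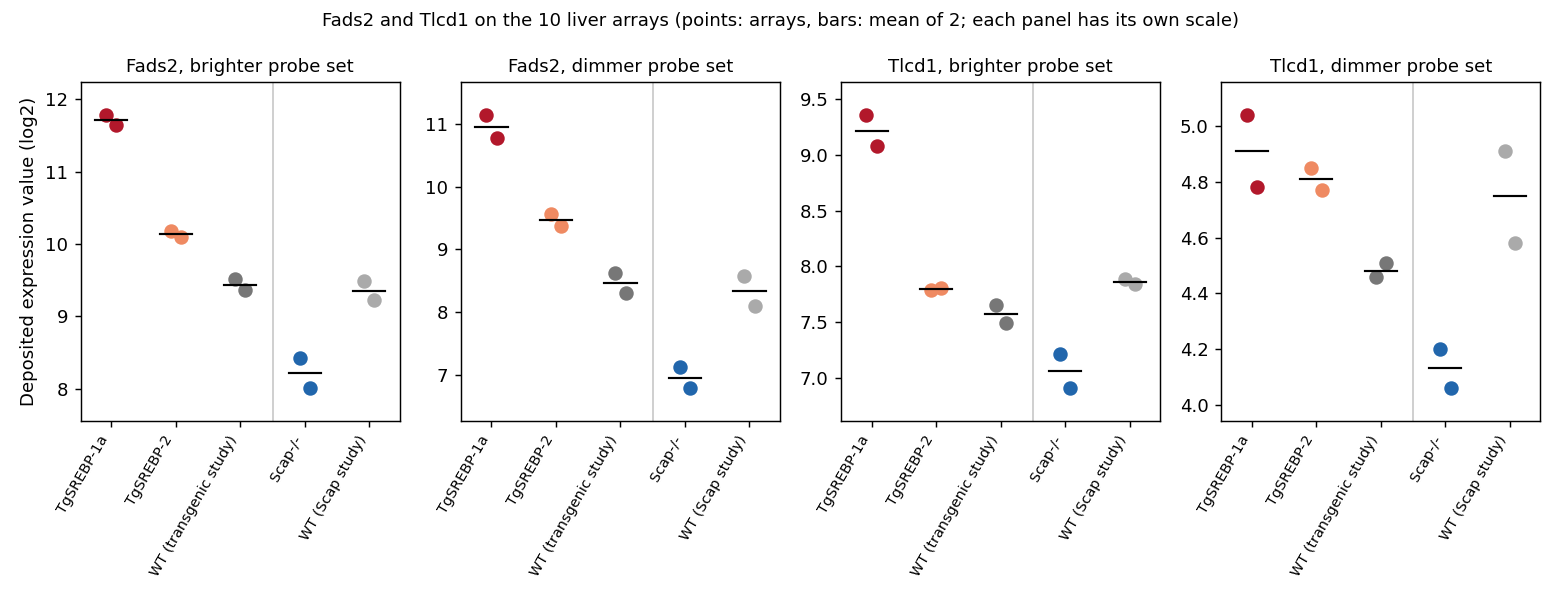
Deposited log2 values of the brighter and dimmer probe sets of Fads2 and Tlcd1 on all 10 arrays, with a point per array, a bar at the mean of each group's 2 arrays, and a scale of its own in each panel. Fads2 steps down from TgSREBP-1a (11.71 on average) over TgSREBP-2 (10.13) to WT (9.43) on its brighter probe set, while the brighter Tlcd1 probe set averages 9.22 in TgSREBP-1a but 7.80 in TgSREBP-2 and 7.57 in WT.

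**Figure D2:**
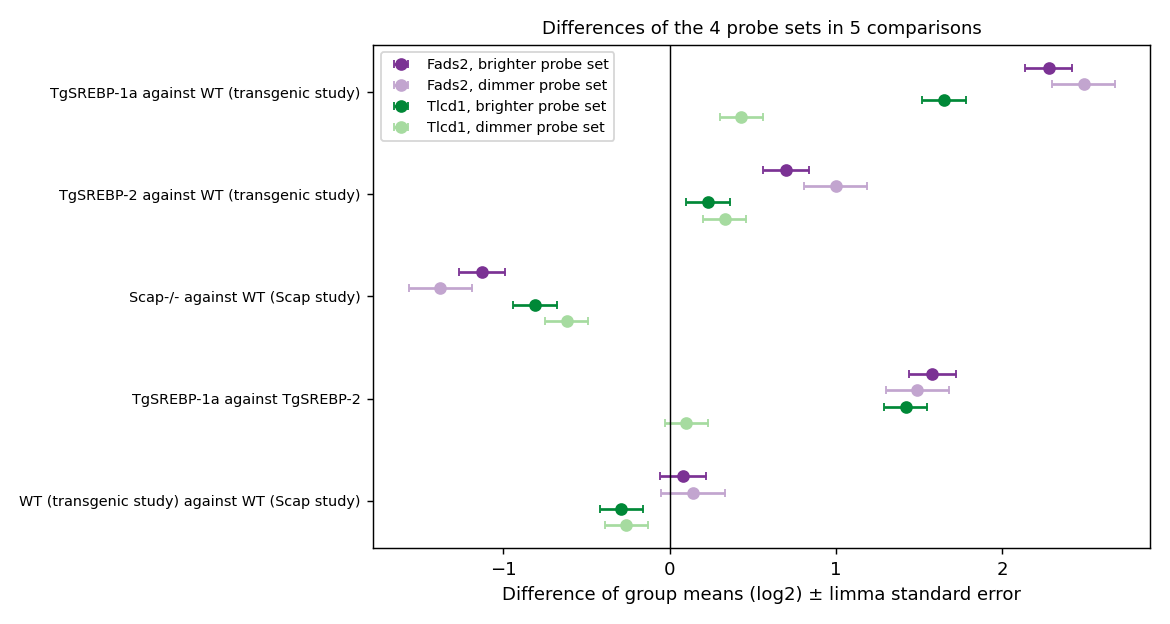
Differences of group means (log2, horizontal axis) with limma standard errors for the 4 probe sets in 5 comparisons (vertical axis). Both Fads2 probe sets and the brighter Tlcd1 probe set lie far above 0 in TgSREBP-1a, and all 4 lie below 0 in Scap-/-; the dim Tlcd1 probe set stays at 0.43 in TgSREBP-1a and at 0.10 between the transgenic lines.

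On all 4 probe sets the arrays of TgSREBP-1a and of TgSREBP-2 were above those of WT without overlap, and those of Scap-/- were below. Of all 12411 probe sets, 19.0%, 15.6% and 14.4% showed these separations. At an adjusted p under 0.05 with at least a 1.5-fold change, the shares over the whole array were 1.36% for rises in TgSREBP-1a, 0.338% for rises in TgSREBP-2 and 0.258% for falls in Scap-/-. Since the genes were chosen on these comparisons, nothing is read from their place among these shares. The TgSREBP-1a and TgSREBP-2 comparisons use the same WT arrays.

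With 1 array left out at a time, the difference of the brighter Fads2 probe set ran from 2.20 to 2.35 in TgSREBP-1a, from 0.62 to 0.78 in TgSREBP-2 and from -1.34 to -0.92 in Scap-/-. That of the brighter Tlcd1 probe set ran from 1.51 to 1.79, from 0.15 to 0.31 and from -0.96 to -0.65. The second Scap-/- array was the lower one on all 4 probe sets, and so were the second arrays of its WT pool and of TgSREBP-1a. The brighter Tlcd1 probe set in TgSREBP-2 and the dim one in the transgenic study's WT pool went the other way.

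Scap itself, on its brighter probe set, read 7.94 and 7.75 in Scap-/- and 9.24 and 8.89 in WT, and the sources used here do not place that probe set relative to the deleted part. Srebf1 had no assigned probe set, nor had the human transgenes. In bulk RNA, fewer cells of a type and less RNA per cell cannot be told apart.

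Of 15 listed hepatocyte markers 6 were measured, and all of their probe sets lay at or above the percentile 96.6 of brightness. Of these 6, C8a, C8b, Fetub and Itih4 fell in TgSREBP-1a (differences from -2.60 to -1.44). Apoa1 and Hnf4a were not called there (each -0.42). In TgSREBP-2 and Scap-/- 0 were called (limma over all probe sets, with 2 and 1 at an unadjusted p under 0.05). Over all probe sets 2.18% were called in TgSREBP-1a, 0.5% in TgSREBP-2 and 0.274% in Scap-/-. The summed linear level of the 6 was 10482 to 11561 in TgSREBP-1a and 11229 to 19358 in TgSREBP-2, against 17432 to 20100 in their WT pool, and 14132 to 17148 in Scap-/- against 17513 to 19105 in WT. Of 3 measured pancreatic acinar genes, Cpb1 and Cela3b fell in TgSREBP-1a and in Scap-/-, and Ctrc rose in TgSREBP-2. Their sum was 227 to 228 in TgSREBP-1a and 3217 to 4228 in TgSREBP-2, against 1970 to 2642 in WT, and 260 to 269 in Scap-/- against 912 to 1114 in WT. Fads2 and Tlcd1 were both higher than in WT in TgSREBP-1a and both lower in Scap-/-, the 2 groups in which Cpb1 and Cela3b fell. Of 5 measured endothelial markers Lyve1 rose in TgSREBP-1a (0.64 ± 0.10), and Stab2, Ptprb, Eng and Flt1 were not called (0.04 to 0.50). The sum of the 5 was 913 to 967 against 789 to 843 in WT. Of 2 measured macrophage markers Cd163 rose in TgSREBP-1a (0.91 ± 0.15), and the dim Timd4 was not called (0.07 ± 0.11). The sum of the 2 was 64.2 to 69.3 against 40.5 to 41.4 in WT. The part of these cell markers in the results was not tested.

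**Figure D3:**
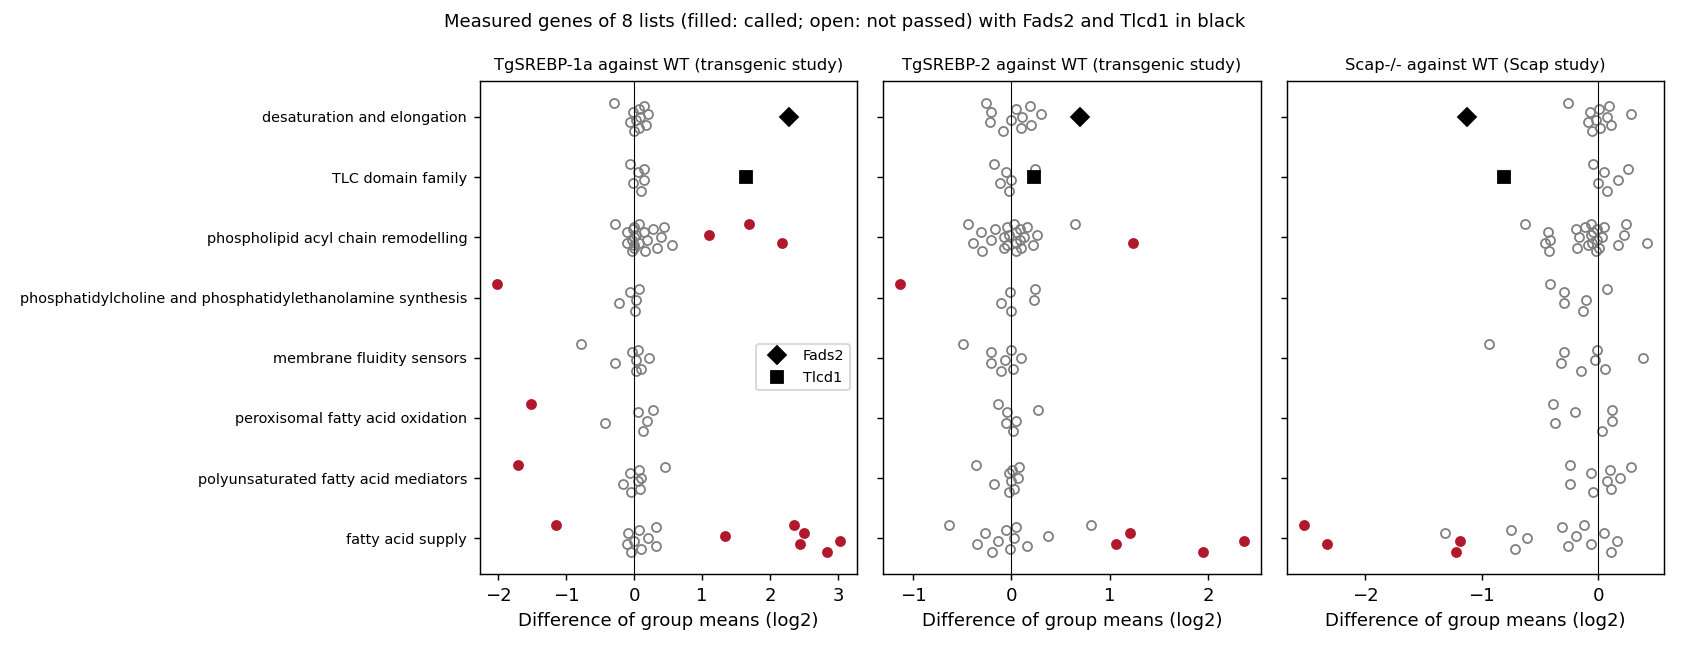
Differences of group means (log2, horizontal axis) of the measured genes of 8 lists (vertical axis) for each line against its own WT pool (TgSREBP-1a, TgSREBP-2, Scap-/-), with filled points for called genes, open points for the others, and Fads2 and Tlcd1 in black. The other desaturation and elongation genes lie between -0.30 and 0.30 in all 3 panels, the other TLC domain genes between -0.18 and 0.26, and called genes stand mostly in fatty acid supply and in phospholipid remodelling.

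The other measured genes of the 2 genes' own families were called in no comparison. Over all probe sets 2.18% were called in TgSREBP-1a, 0.5% in TgSREBP-2 and 0.274% in Scap-/-. In lists this short, 0 calls lie near those shares, so nothing about the families is read from them. The list of fatty acid desaturation and elongation had 29 genes besides Fads2, of which 11 were measured. By limma over all probe sets 0 of the 11 were called in TgSREBP-1a (1 at an unadjusted p under 0.05), 0 in TgSREBP-2 (0) and 0 in Scap-/- (0). Their medians were 0.07, 0.05 and 0.01, against -0.02, -0.02 and 0.02 over all probe sets. Fads3, a desaturase relative of FADS2 with its gene beside it, read 5.26 and 5.57 in TgSREBP-1a livers and 5.63 and 5.86 in TgSREBP-2, against 5.38 and 5.50 in WT. It differed by -0.02 ± 0.14 and 0.30 ± 0.14 there and by -0.09 ± 0.14 in Scap-/- (limma, adjusted p = 1.0, 0.65 and 0.87). Elovl2, the elongase of long polyunsaturated chains, was dim (percentile 15.8) and differed by 0.07 ± 0.11, 0.11 ± 0.11 and -0.05 ± 0.11. No probe set was assigned to Fads1, Scd1, Scd2, Elovl5 or Elovl6, so the later desaturation step and the main elongases are not described here.

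Of 15 genes of the TLC domain family besides Tlcd1, 6 were measured and 0 were called in any of the 3 comparisons (limma; 0, 0 and 1 at an unadjusted p under 0.05). Their medians were 0.08 in TgSREBP-1a, -0.04 in TgSREBP-2 and 0.06 in Scap-/-. Tlcd3a differed by -0.07 ± 0.11 in TgSREBP-1a, and the ceramide synthase Cers5 by -0.02 ± 0.10. No probe set was assigned to Tlcd2, the closest relative of Tlcd1. Of 10 membrane fluidity sensors and relatives, 8 were measured and 0 called in the 3 comparisons, with 2, 0 and 2 at an unadjusted p under 0.05. For both lists, 0 calls again lie near the shares over all probe sets (2.18%, 0.5% and 0.274%). Adipor2, whose product raises membrane unsaturation in human cells, was bright and differed by 0.22 ± 0.11 in TgSREBP-1a, 0.0 ± 0.11 in TgSREBP-2 and -0.03 ± 0.11 in Scap-/-.

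Of 24 measured genes of phospholipid acyl chain remodelling, 3 rose and 0 fell in TgSREBP-1a, where 2.18% of all probe sets were called in either direction. The list median was 0.07, against -0.02 over all probe sets. Mfsd2a, a carrier of lysophospholipids with docosahexaenoic acid, read 9.66 and 9.42 in TgSREBP-1a livers, 8.54 and 8.47 in TgSREBP-2, and 7.96 and 7.74 in their WT pool. It rose by 1.69 ± 0.14 (3.23-fold; limma, adjusted p = 7.4e-05), and the difference of 0.65 ± 0.14 in TgSREBP-2 did not pass (adjusted p = 0.095). In Scap-/- it read 7.22 and 7.28 against 6.66 and 7.0 in WT, above it and not below, with a difference of 0.42 ± 0.14 (adjusted p = 0.53).

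Acsl4, the acyl-CoA synthetase that prefers arachidonic acid, read 5.88 and 5.80 in TgSREBP-1a livers, 4.69 and 5.11 in TgSREBP-2, and 4.85 and 4.63 in WT. It rose by 1.10 ± 0.17 in TgSREBP-1a (2.15-fold; limma, adjusted p = 0.0051), a call that ended without the first TgSREBP-1a array or without the second WT array. Acsl3, a synthetase of the endoplasmic reticulum and lipid droplets, rose by 2.18 ± 0.15 in TgSREBP-1a on its brighter probe set, which is of middling brightness, while its other probe set differed by 0.15 ± 0.16 there, with overlapping arrays. Acsl3 was also the 1 gene of this list that rose in TgSREBP-2, where 0.5% of all probe sets were called. It rose by 1.24 ± 0.15 there (limma, adjusted p = 0.0033), and this call ended without either WT array. In Scap-/-, where 0.274% of all probe sets were called, 0 of the 24 were called by limma, with 4 at an unadjusted p under 0.05. Their median there was -0.06.

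Cyp4f14, which hydroxylates leukotriene and other fatty acid tails, was the 1 call in TgSREBP-1a among 9 measured genes of polyunsaturated fatty acid mediators. It read 8.09 and 8.06 in TgSREBP-1a livers and 9.40 and 9.45 in TgSREBP-2, against 9.97 and 9.60 in WT. Cyp4f14 fell by 1.71 on the log2 scale in TgSREBP-1a (SE 0.17; limma, adjusted p = 0.00027) and read 10.02 and 9.55 in Scap-/- against 10.18 and 9.87 in WT. Crot, the peroxisomal carnitine acyltransferase, was the 1 call among 6 peroxisomal genes and fell by 1.52 in TgSREBP-1a. Etnppl, which degrades phosphoethanolamine, was the 1 call among 6 genes of phosphatidylcholine and phosphatidylethanolamine synthesis. It read 7.14 and 7.13 in TgSREBP-1a livers and 8.03 and 8.03 in TgSREBP-2, against 9.30 and 9.01 in WT. Etnppl fell by 2.02 and 1.13 there (SE 0.13, limma adjusted p = 1.3e-05 and 0.0021). Over all probe sets 2.18% were called in TgSREBP-1a and 0.5% in TgSREBP-2, and nothing is read from 1 call in lists this short.

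The genes of fatty acid supply and its control were the list with the most calls in each line against WT. Over all probe sets 2.18% were called in TgSREBP-1a, 0.5% in TgSREBP-2 and 0.274% in Scap-/-. The list was written with earlier results of these data known, so nothing is read from its excess. Of 16 measured genes, 6 rose and 1 fell in TgSREBP-1a (median 0.26), 4 rose and 0 fell in TgSREBP-2 (median 0.04), and 0 rose and 4 fell in Scap-/- (median -0.46). Those 4 include Scap itself, the gene deleted in that group, and its fall is not read as a pathway response. The single fall in TgSREBP-1a was Ppara (-1.15 ± 0.19), a receptor for fatty acids, and it held in 1 of 4 fits that each leave out an array. In Scap-/-, Insig1, the anchor of SCAP, read 4.53 and 4.12 against 7.26 and 6.45 in WT. Acacb, the mitochondrial acetyl-CoA carboxylase, fell by 1.19 (SE 0.15) there, Acss2 by 2.33 and Scap by 1.22. The calls of Acacb and Scap ended without the second Scap-/- array or without the first WT array of that study, and that of Scap also without the first Scap-/- array.

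The 8 lists were written with earlier results of these data known, and each gene stands for its brightest probe set. The shares below are thus a description, and nothing is read from their excess over all probe sets. Over all 8 lists, which hold 86 different measured genes without Fads2 and Tlcd1, 9 rose and 4 fell in TgSREBP-1a (15.1%, against 2.18% of all probe sets). In TgSREBP-2 5 rose and 1 fell (6.98%, against 0.5%), and in Scap-/- 0 rose and 4 fell, Scap itself among them (4.65%, against 0.274%). Between the transgenic lines 7 were higher in TgSREBP-1a and 3 lower (11.6%, against 1.86%). Between the WT pools 2 were higher in the transgenic study, Mfsd2a (1.02 ± 0.14) and Etnppl (1.44 ± 0.13), and 4 lower, Agpat2, Pnpla7, Acss2 and Insig1 (6.98%, against 0.508%). Of these calls, 11 of 13 held without each array in turn in TgSREBP-1a, 3 of 6 in TgSREBP-2, 2 of 4 in Scap-/-, 5 of 10 between the lines and 1 of 6 between the WT pools.

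The genes beside Fads2 and Tlcd1 on their chromosomes were examined next, since position was not used in choosing them. Fads2 lies on chromosome 19 between Fads3 and Fads1, and Tlcd1 on chromosome 11 between Nek8 and Rpl23a. Of the 10 nearest protein-coding neighbours of Fads2, 5 on each side, 6 were measured, and of those of Tlcd1 3 were. None of these 9 was called in any of the 5 comparisons (limma over all probe sets). Over all probe sets 2.18% were called in TgSREBP-1a, 0.5% in TgSREBP-2 and 0.274% in Scap-/-. Between the transgenic lines it was 1.86%, and between the WT pools 0.508%, so 0 of 9 lies near these shares. At an unadjusted p under 0.05 there was 1 of the 9 in TgSREBP-1a (Fth1), 1 in TgSREBP-2 (Fam222b), 0 in Scap-/-, 2 between the transgenic lines (Fth1 and Fads3) and 2 between the WT pools (Fth1 and Tmem258). Around Fads2 the neighbours Incenp, Fth1, Rab3il1, Fads3, Tmem258 and Dagla lay between -0.13 and 0.30 in TgSREBP-1a, between -0.08 and 0.30 in TgSREBP-2 and between -0.09 and 0.15 in Scap-/-. Around Tlcd1, Nek8 differed by -0.12 ± 0.09 in TgSREBP-1a and by -0.13 ± 0.09 in Scap-/-, and Fam222b and Rab34 by -0.13 ± 0.11 and 0.05 ± 0.16 in TgSREBP-1a.

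**Figure D4:**
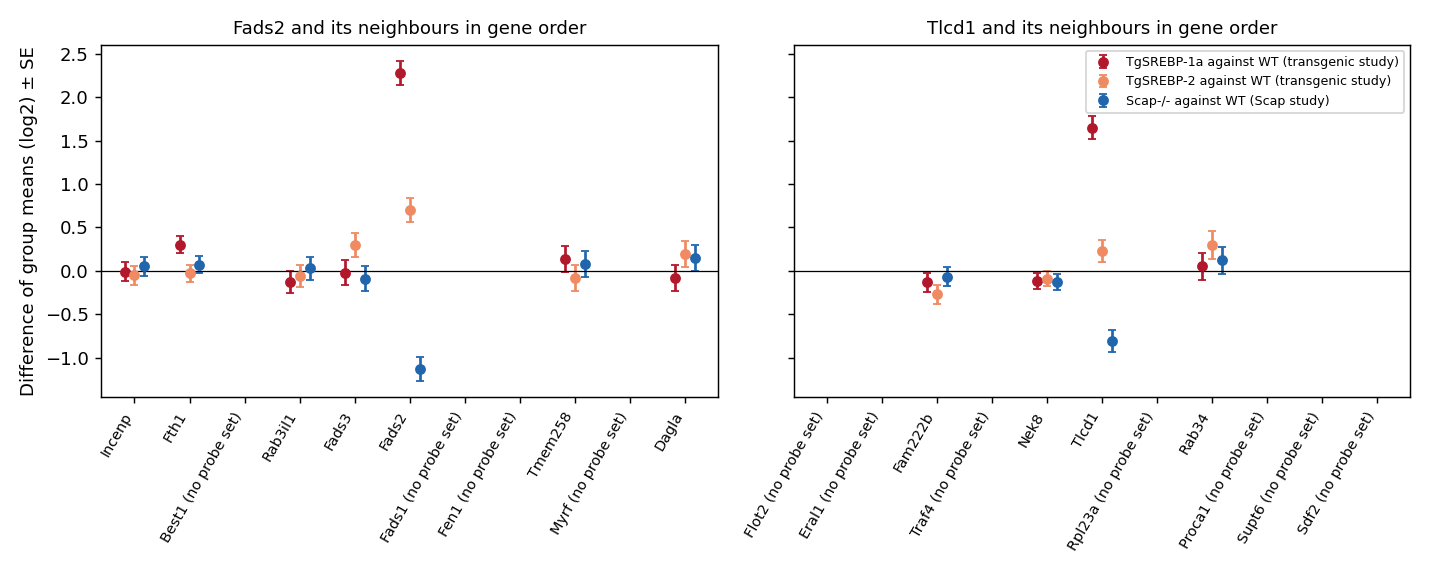
Differences of group means (log2, with limma standard errors, vertical axis) for Fads2, Tlcd1 and the 5 protein-coding genes on each side of them in gene order (horizontal axis), for each line against its own WT pool (TgSREBP-1a, TgSREBP-2, Scap-/-); genes with no probe set have no points. Fads2 and Tlcd1 stand at 2.28 and 1.65 in TgSREBP-1a, while their measured neighbours stay between -0.27 and 0.30 in the 3 comparisons.

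Likeness of pattern was measured as Pearson r over the 10 arrays with the brighter probe set of each gene. The candidates were about 300 probe sets of other genes with 1 symbol whose group means span at least 1 log2 unit. These arrays come from 5 pools and share 2 studies, so r describes the pools only. The other Fads2 probe set had r = 0.994 with the brighter one, and r = 0.996 over the 8 arrays outside TgSREBP-1a. The nearest other genes were Acaca, the cytosolic acetyl-CoA carboxylase (0.967), Pi4ka, a phosphatidylinositol kinase (0.966), Tlcd1 (0.959), Camk1d, a calmodulin-dependent kinase (0.953), and Chrna4, annotated as an acetylcholine receptor subunit (0.947). Tlcd1 was thus the third among 297 candidates for Fads2. Both genes were chosen with their values on these arrays known, so nothing is read from their ranks for each other. Another Chrna4 probe set, slightly brighter, differed by 0.0 in TgSREBP-1a where the one named here differed by 2.49. A dimmer Chrna4 probe set differed by 1.22 there. A dimmer Camk1d probe set differed by 0.57 in TgSREBP-1a, and the one named here by 1.52.

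For Tlcd1 the nearest were the glutathione transferase Gstt3 (0.985), Atp10d, a phospholipid flippase family member (0.968), Tmem135, a peroxisomal and mitochondrial membrane protein (0.963), Frmd4b (0.963) and Acacb (0.962). Fads2 had rank 6 of 298, at 0.959, on its brighter probe set and rank 22, at 0.934, on its other one. The dim Tlcd1 probe set had r = 0.783 with the brighter Tlcd1 one. With the brighter Fads2 probe set it had r = 0.828, at rank 71 of 297. Over the 8 arrays outside TgSREBP-1a, r between the brighter probe sets of Fads2 and Tlcd1 was 0.874. There the dim Tlcd1 probe set had 0.926 with the brighter Tlcd1 one and 0.893 with the brighter Fads2 one. The 5 genes most like Tlcd1 differed by 1.33 to 2.02 in TgSREBP-1a, by -0.14 to 0.61 in TgSREBP-2 and by -1.19 to -0.39 in Scap-/-. Those most like Fads2 differed by 0.81 to 2.49, by 0.23 to 1.06 and by -0.85 to -0.43. Acaca, among those nearest to Fads2, differed by 1.06 ± 0.14 in TgSREBP-2, and Acacb, among those nearest to Tlcd1, by -0.14 ± 0.15. Pi4ka (0.30) and Camk1d (0.24), near Fads2, lay below Frmd4b (0.61), near Tlcd1, in TgSREBP-2. All were picked for their likeness on these same arrays, so nothing is read from their differences.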

How the data were processed

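The members, gene lists and tests were chosen with earlier results of these data known. The authors deposited log2 expression values per probe set, made with RMA per the submitters' processing notes (no version given), while the design text in the labels also names another Affymetrix package. RMA corrects background, equalises arrays and summarises probes, and it tends to compress fold changes of dim probe sets. Array medians were 5.625 to 5.662. No genome build was named.

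From 12477 probe sets, 66 controls were left out. The platform annotation gave 1 symbol for 10581, several for 178 and none for 1652. The 5 group means were estimated jointly over 10 arrays with limma 3.58.1 (lmFit, eBayes) in R 4.3.3, with Benjamini-Hochberg adjustment over 12411 probe sets. Called means an adjusted p under 0.05 and at least 1.5-fold. The procedure was tested on simulated data with independent noise on each array. The simulated data held neither deviations shared between arrays nor the spread between mice. Each listed gene stands for its brightest probe set. Named were the called genes of each list, a few members set beforehand and the 5 probe sets most like each gene. Neighbours were taken after values were seen. The median standard error was 0.115. The number of arrays limits the precision, and p-values measure hybridisation error between single pools. Alternatives were leaving out arrays, fits within a study, a replicate block, a trended prior, a filter on dim probe sets, median centring and other probe sets.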

Additional observations from a re-analysis of the deposited data

Results flagged for a closer look

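The response of 10 listed genes differed between the transgenic lines, by the limma test of TgSREBP-1a against TgSREBP-2, which share their WT arrays. Higher in TgSREBP-1a were Fasn (1.64 ± 0.16, adjusted p = 0.00044), Me1 (1.54 ± 0.29, 0.021), Acacb (1.48 ± 0.15, 0.00051), Acaca (1.38 ± 0.14, 0.00044), Mfsd2a (1.04 ± 0.14, 0.0024), Acsl4 (0.94 ± 0.17, 0.016) and Acsl3 (0.93 ± 0.15, 0.0078). Lower were Crot (-1.46 ± 0.22, 0.0057), Cyp4f14 (-1.35 ± 0.17, 0.002) and Etnppl (-0.89 ± 0.13, 0.0037). Without the first TgSREBP-1a array, the calls of Acsl3, Acsl4, Crot, Etnppl and Me1 ended. Without the second TgSREBP-1a array those of Acsl4, Crot and Me1 did, and without the first TgSREBP-2 array those of Acsl3, Acsl4, Crot and Me1. The calls of Fasn, Acacb, Acaca, Mfsd2a and Cyp4f14 held in all 4 fits that each leave out an array.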

How the results depend on the processing

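The differences of Fads2 and Tlcd1 kept their sign in all 3 lines against WT in every alternative run. On the other probe set Fads2 gave 2.49 in TgSREBP-1a, 1.0 in TgSREBP-2 and -1.38 in Scap-/-. Tlcd1 gave 0.43 in TgSREBP-1a, -0.62 in Scap-/- and 0.10 between the transgenic lines on its dim probe set, and 1.04 and 0.76 for TgSREBP-1a against WT and against TgSREBP-2 on the mean of both. Without 1 array, Fads2 ran from -1.34 to -0.92 and Tlcd1 from -0.96 to -0.65 in Scap-/-. Fads2 ran from 1.51 to 1.64 and Tlcd1 from 1.28 to 1.56 between the lines, and from -0.05 to 0.21 and -0.37 to -0.21 between the WT pools.

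With only the arrays of the comparison's study, Scap-/- gave 5 called probe sets in place of 34 and 1 listed gene in place of 4, and the WT pools 13 in place of 63 and 1 in place of 6. No label says that the hybridisation number marks a batch, yet same-numbered arrays deviated together in most pairs of groups (r from -0.167 to 0.598 over probe sets). With it as a replicate block, 101 probe sets were called in TgSREBP-2 (62 without), 91 and 7 listed genes in Scap-/-, and 145 between the WT pools. Without 1 array, called probe sets ran from 142 to 193 (270 with all) in TgSREBP-1a, 25 to 124 in TgSREBP-2, 10 to 68 in Scap-/-, 87 to 384 between the lines and 14 to 120 between the WT pools. Listed genes ran from 11 to 12, 3 to 6, 2 to 5, 5 to 10 and 1 to 9. The cause was not tested. The correlation over 8 arrays was added after seeing the data.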
